A study of Mus musculus with 8 samples.

Results

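Genes of the mitotic spindle and of the G2 and M phases of the cell cycle were examined in the uterus of 8 wildtype C57BL/6J mice. A list of 36 genes was set by name, and 34 of them could be matched to the array, each by 1 probe set, out of 19505 genes with a symbol. Ccnb1 and Foxm1, the other listed genes, were not analysed here. All 8 mice had mated with vasectomised males, which gives a pseudopregnant uterus that contains no embryo, and tissue was collected on the morning of day 4.5, counting the day of the copulatory plug as day 0.5. The 4 mice of the sham group breathed room air. The 4 mice of the ecig group inhaled an unflavoured aerosol that held nicotine (24 mg/mL in a 55:45 mixture of propylene glycol and vegetable glycerin), for 3 hours a day on 5 days a week during 4 weeks before mating and then on each day up to collection. The comparison concerns the effect of e-cigarette aerosol on the uterus of early pregnancy. Each mouse gave 1 array of total RNA, values are log2 expression, and precision is limited by the small number of arrays. A list of 10 genes typical of uterus was looked at, among them Hoxa10 (11.17 ± 0.14 in sham and 11.06 ± 0.17 in ecig mice, SD, n = 4 in each), Pgr, the progesterone receptor (10.47 ± 0.23 and 10.79 ± 0.42), and Esr1, an oestrogen receptor (9.82 ± 0.086 and 9.98 ± 0.23). Ltf, of the same list and named after its values were seen, varied widely, from 6.69 to 11.67 in sham and from 6.27 to 9.09 in ecig mice. Every probe set has a value on each array, so these values do not test the labelled tissue.

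The genes examined are transcribed late in the cell cycle, so that their RNA is abundant in cells that are dividing and scarce in resting cells. Their products condense and attach the chromosomes, build the spindle, hold back anaphase until every chromosome is attached, and separate the daughter cells. In the mouse uterus, progesterone stops division of the epithelium before implantation while stromal cells begin to divide, and the RNAs of these genes are commonly read as a measure of dividing cells. In RNA of a whole tissue, fewer dividing cells and less RNA per dividing cell cannot be told apart.

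Mitotic genes varied far more between the exposed mice than between the sham mice, and the exposed mice did not vary in one direction. The mean of the 34 genes was 7.43, 7.32, 7.45 and 7.01 in sham mice 1 to 4, and 7.79, 6.61, 7.38 and 6.32 in ecig mice 1 to 4. Ecig mouse 1 thus lay above all sham mice, ecig mouse 3 among them, and ecig mice 2 and 4 below them. Against the sham mean, this amounted to 1.40-fold higher in ecig mouse 1, 1.61-fold lower in ecig mouse 2 and 1.97-fold lower in ecig mouse 4. Between ecig mice 1 and 4, which had the same exposure per the labels, the mean differed 2.76-fold. Sham mouse 4 was the lowest sham mouse, at -0.29 relative to the sham mean.

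**Figure D1:**
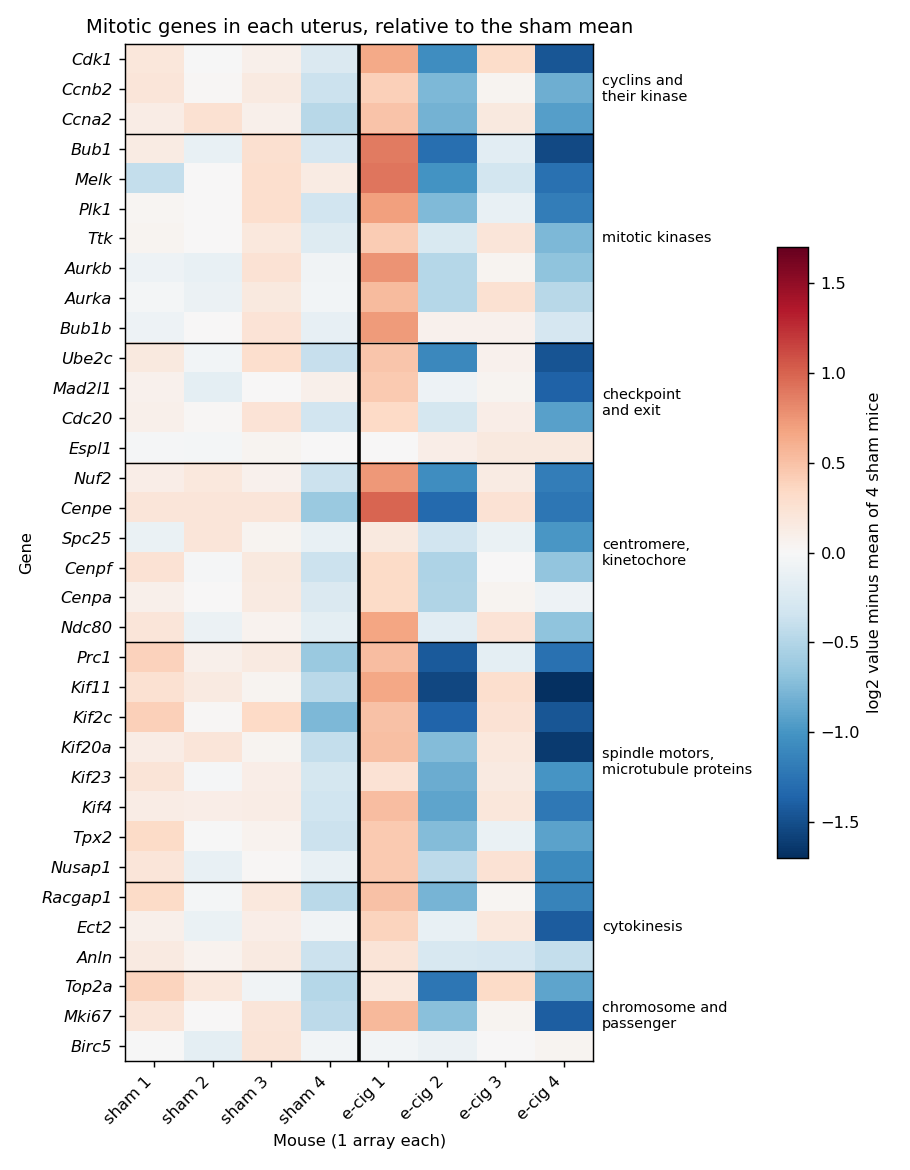
Log2 value of each of the 34 mitotic genes (rows, grouped by role) in each of the 8 uteri (columns), shown as the difference from the mean of the 4 sham mice; red is higher and blue lower. The column of ecig mouse 1 is red and those of ecig mice 2 and 4 are blue for most genes, whereas Espl1 and Birc5 are pale in every mouse.

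The high and low mice were the same ones for most of the genes. Ecig mouse 1 had the highest of the 8 values for 30 of 34 genes, and ecig mouse 4 the lowest for 27. For 27 genes, ecig mice 2 and 4 held the lowest 2 values together, a position they held at 11.6% of all 22206 probe sets. The exceptions, named after their values were seen, were Bub1b, Mad2l1, Cdc20, Espl1, Cenpa, Anln and Birc5. Ecig mouse 1 exceeded all 4 sham mice for 30 genes (19.4% of all probe sets), ecig mouse 4 lay below all 4 for 31 (28.2%) and ecig mouse 2 for 28 (25.2%), while ecig mouse 3 lay within the sham range for 24. The level in ecig mouse 1 was at least 2-fold that in ecig mouse 4 for 29 genes, with a median of 2.81-fold and a range from 0.899-fold for Espl1 to 5.32-fold for Bub1. A range over the 8 mice of at least 1 log2 unit, which is 2-fold, was found for 29 genes and at 8.67% of all probe sets. For the counts of highest and of lowest values, and for that of ecig mouse 3, no share over all probe sets was taken.

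Group means were lower after exposure for 31 genes and higher for 3, and no gene passed the test. The median difference, ecig minus sham, was -0.32 on the log2 scale, against 0.0014 over all probe sets, of which 49.5% had a lower mean. Limma, with p-values adjusted by Benjamini-Hochberg across the whole array, placed 0 of 34 genes past an adjusted p of 0.05 (0.0% of all probe sets), and adjusted p ran from 0.841 to 0.996. At an unadjusted p under 0.05 the count was also 0 in both directions, where 2.5% of probe sets were lower and 2.91% higher, and the smallest p was 0.167, for Spc25. The 95% interval of each of the 34 differences included 0, with bounds as far as -1.67 for Kif11 and 0.72 for Cenpe, so shifts of the mean in either direction lie within the error of these arrays. No gene had its 4 ecig values all below or all above its 4 sham values (0 of 34 each way, against 1.35% and 1.38% of probe sets).

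The low values of ecig mice 2 and 4 brought the group means down. Without ecig mouse 4 the median difference of the 34 genes was -0.053 and 24 genes had a lower mean, and without ecig mouse 2 these values were -0.16 and 27. With both left out, which was tried once the values had been seen, the median was 0.29 and 2 genes had a lower mean (51.9% of all probe sets). Leaving out the mice seen to be low must raise the mean of the rest, so this is no estimate of an effect. Without ecig mouse 1 the median was -0.54, with 33 genes lower and 13 of them at an unadjusted p under 0.05 in limma, where 6.03% of all probe sets were lower at that p, still with 0 past adjustment (smallest adjusted p 0.282, for Melk).

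**Figure D2:**
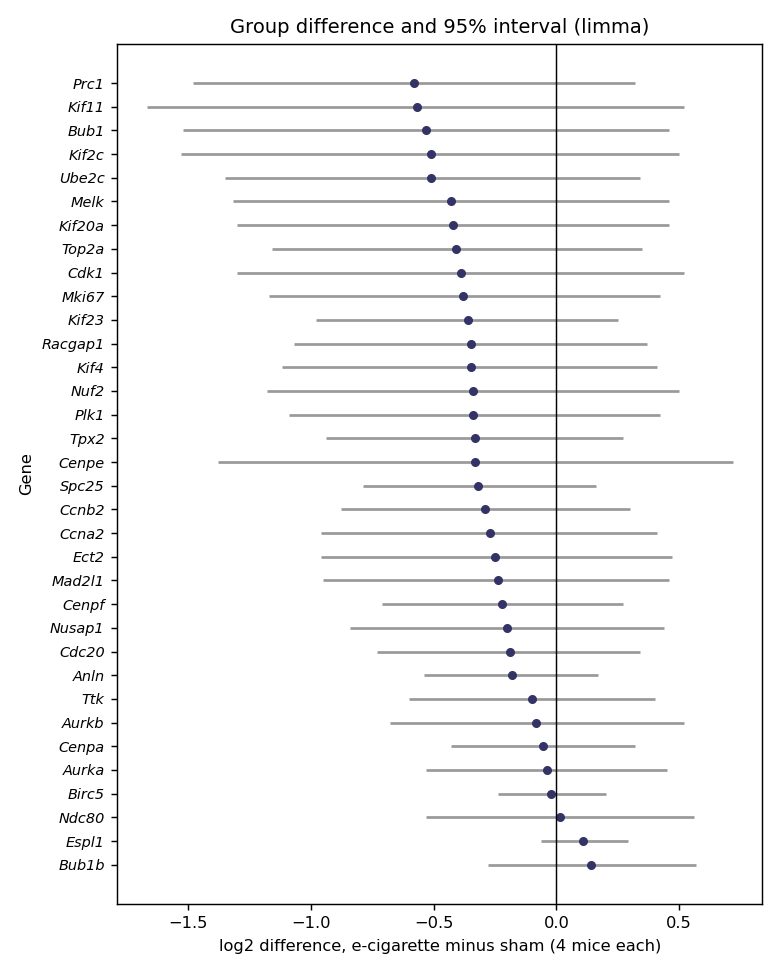
Log2 difference between group means (ecig minus sham, 4 mice each) with its 95% interval from limma, 1 row per mitotic gene, ordered by the difference. Differences run from -0.58 for Prc1 to 0.14 for Bub1b, and every interval crosses 0.

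The spread between mice was wider in the ecig group, which is a description and was not tested. The SD over 4 mice was larger in the ecig group for 33 of 34 genes, where 65.8% of all probe sets had the larger SD there. Its median over the 34 genes was 0.24 in sham and 0.72 in ecig mice, against 0.13 and 0.18 over all probe sets. The ratio of the ecig to the sham SD had a median of 3.03 for mitotic genes and 1.32 for all probe sets. Ratios were highest for Ect2 (7.55), Mad2l1 (6.67) and Cdk1 (5.40), and the only gene below 1 was Birc5 (0.368). Without ecig mice 2 and 4, the larger SD was in the ecig group for 21 of 34 genes (41.7% of all probe sets). These counts describe these 8 mice, since no test was made over the list. Most of the 34 genes moved together from mouse to mouse, so the genes in these counts are not independent. Exposed uteri also varied more on the array as a whole, and what part that has in the spread of the mitotic genes was not tested.

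**Figure D3:**
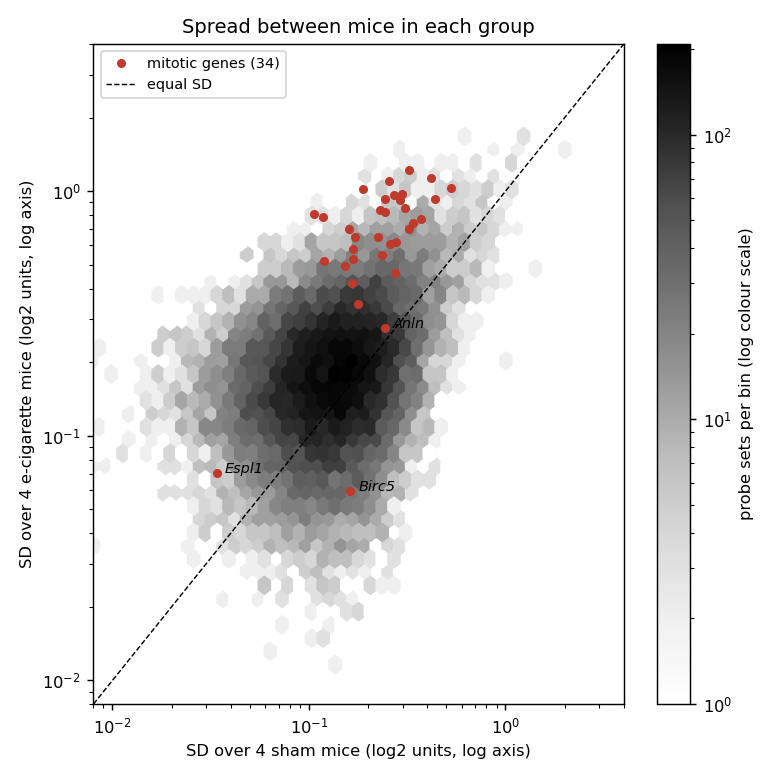
SD over the 4 sham mice (x axis) and over the 4 ecig mice (y axis), both in log2 units on log axes, for all probe sets (grey bins) and the 34 mitotic genes (red points); the dashed line marks equal SDs. All red points other than Birc5 lie above the line, and most lie at the upper edge of the grey cloud.

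Many promoters of such genes carry a short element called the cell cycle genes homology region (CHR), which is bound by the MuvB core of the DREAM complex in resting cells and by the B-MYB and FOXM1 forms of MuvB in dividing cells, together with CCAAT boxes bound by NF-Y. As the mitotic genes moved together from mouse to mouse, their RefSeq promoter windows (GRCm38.p6, 250 bases before to 50 after the gene start) were searched on both strands for the CHR, as TTTGAA or TTCGAA, and for CCAAT. A window was given for 31 of the 36 listed genes. A CHR was found in 24 of the 31 (77.4%), a CCAAT box in 23 (74.2%) and both in 21 (67.7%). Counted per gene in the same way, the shares over 15691 measured genes with a window were 19.6%, 42.2% and 8.09%. Counted per window, over all 32851 windows of this length, they were 19.2%, 37.4% and 7.52%. A match describes the letters in the window and does not show binding. The 4 promoters below are those of the genes with both elements and the largest differences between groups, read 5′ to 3′ along the gene's strand, with CHR and CCAAT matches in capitals (TTCAAA and ATTGG are matches on the other strand).

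Prc1 promoter: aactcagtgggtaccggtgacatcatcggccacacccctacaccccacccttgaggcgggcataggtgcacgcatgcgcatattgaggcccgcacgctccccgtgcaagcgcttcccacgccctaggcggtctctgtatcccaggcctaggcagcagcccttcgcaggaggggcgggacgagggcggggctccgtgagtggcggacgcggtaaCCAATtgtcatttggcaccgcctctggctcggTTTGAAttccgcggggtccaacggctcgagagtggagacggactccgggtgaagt

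Kif11 promoter: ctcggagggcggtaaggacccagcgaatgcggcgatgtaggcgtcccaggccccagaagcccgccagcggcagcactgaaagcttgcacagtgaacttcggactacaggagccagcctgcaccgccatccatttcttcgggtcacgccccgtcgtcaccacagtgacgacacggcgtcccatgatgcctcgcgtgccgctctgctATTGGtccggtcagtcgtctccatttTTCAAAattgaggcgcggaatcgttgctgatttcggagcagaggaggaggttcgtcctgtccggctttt

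Bub1 promoter: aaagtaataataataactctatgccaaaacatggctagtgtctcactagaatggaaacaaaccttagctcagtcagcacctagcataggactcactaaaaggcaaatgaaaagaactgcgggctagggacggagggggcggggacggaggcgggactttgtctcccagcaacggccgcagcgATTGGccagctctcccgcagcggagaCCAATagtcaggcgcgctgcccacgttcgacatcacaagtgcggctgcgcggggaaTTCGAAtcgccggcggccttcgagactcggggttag

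Ube2c promoter: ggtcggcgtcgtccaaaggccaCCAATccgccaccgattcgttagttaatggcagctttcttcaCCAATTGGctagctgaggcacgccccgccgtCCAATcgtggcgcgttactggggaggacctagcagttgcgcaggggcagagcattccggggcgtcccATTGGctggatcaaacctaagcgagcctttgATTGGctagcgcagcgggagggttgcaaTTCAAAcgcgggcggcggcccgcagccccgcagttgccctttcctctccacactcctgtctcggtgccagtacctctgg

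The Prc1 window lies at chr7:80294201-80294500 on the plus strand, and its CCAAT box (first base at position 214 of the window) precedes the CHR (position 246) by 32 bases. In the Kif11 window, at chr19:37376132-37376431 on the plus strand, a CCAAT box on the other strand starts at position 206 and the CHR at position 232, which is 26 bases on. The Bub1 window, at chr2:127831810-127832109 on the minus strand, holds 2 CCAAT boxes and a CHR of the form TTCGAA at position 265. The Ube2c window, at chr2:164769679-164769978 on the plus strand, holds 6 CCAAT matches, of which a pair on opposite strands share bases at positions 65 and 68, and a CHR at position 222. In each of the 4 windows a CCAAT box stands before the CHR, by 26 to 56 bases. No CHR overlapped a CCAAT box in any of the windows of the listed genes. Espl1, whose measured values did not follow the other mitotic genes, also holds a CHR (position 224) and a CCAAT box (position 207). The window of Birc5, whose measured values did not follow them either, holds neither element. The windows of Nuf2, Nusap1, Melk and Mad2l1 also hold neither, and the values of these genes did follow the other mitotic genes. Their Pearson's r with the mean of the others over the 8 mice was 0.98, 0.95, 0.86 and 0.80. By the same measure Bub1b, which holds both elements, was at 0.69, and Cenpe, with a CCAAT box and no CHR, at 0.97. Whether the elements bear on how these RNAs moved from mouse to mouse was not tested, and letters in a window cannot decide it.

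Cyclins A and B and their kinase drive entry into mitosis. Cdk1, the kinase itself, was at 6.85, 6.65, 6.75 and 6.41 in sham mice 1 to 4 and at 7.30, 5.61, 6.97 and 5.21 in ecig mice 1 to 4. Ecig mice 1 and 3 stood above every sham mouse and ecig mice 2 and 4 far below, and the difference of -0.39 (SE 0.41) was smaller than its error. Ccnb2, a B-type cyclin, was at 8.83, 8.65, 8.78 and 8.26 in sham and at 9.04, 7.86, 8.67 and 7.80 in ecig mice, a difference of -0.29 (SE 0.27). Ccna2, cyclin A2, which acts from S phase into mitosis, differed by -0.27 (SE 0.31). In all 3 genes ecig mice 2 and 4 were lowest and ecig mouse 1 highest.

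Among the mitotic kinases, 6 of 7 had lower means. Bub1, a checkpoint kinase of the kinetochore, was at 6.69, 6.42, 6.82 and 6.26 in sham and at 7.43, 5.27, 6.37 and 5.01 in ecig mice (difference -0.53, SE 0.44). Its range over the 8 mice, 2.41 log2 units, was the widest of the 34 genes. Melk, a kinase abundant in dividing progenitor cells, was at 5.88, 6.30, 6.57 and 6.43 in sham and at 7.20, 5.27, 5.98 and 5.02 in ecig mice (difference -0.43, SE 0.40). Here sham mouse 1, not 4, was the lowest sham mouse. Differences were -0.34 (SE 0.34) for Plk1, which acts at centrosomes and kinetochores, -0.099 (SE 0.23) for Ttk, the MPS1 kinase that starts checkpoint signalling, -0.082 (SE 0.27) for Aurkb, of the chromosomal passenger complex, and -0.039 (SE 0.22) for Aurka, of the spindle poles (0.034 with array weights). Ecig mouse 1 had the highest value of every kinase. Bub1b, which encodes the checkpoint protein BUBR1, is given after its values were seen, as the kinase with a higher mean (difference 0.14, SE 0.19). It was at 6.79, 6.89, 7.11 and 6.74 in sham and at 7.61, 6.95, 6.95 and 6.60 in ecig mice, so that ecig mouse 1 stood apart and ecig mice 2 and 3 lay within the sham range.

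The spindle checkpoint holds back the anaphase-promoting complex, a ubiquitin ligase that ends mitosis by having cyclin B and securin degraded. Ube2c, the ubiquitin-conjugating enzyme of that complex, was at 8.57, 8.37, 8.69 and 8.02 in sham and at 8.88, 7.32, 8.48 and 6.94 in ecig mice (difference -0.51, SE 0.38). Mad2l1, the checkpoint protein MAD2, was at 8.05, 7.82, 7.98 and 8.07 in sham and at 8.42, 7.89, 8.03 and 6.61 in ecig mice (difference -0.24, SE 0.32). Mad2l1 thus was low in ecig mouse 4 and within the sham range in ecig mouse 2, unlike Ube2c, which was low in both. Cdc20, the activator of the complex that MAD2 restrains, differed by -0.19 (SE 0.24). Espl1, the separase that cleaves cohesin, kept apart from the other genes, and is given after its values were seen. It was at 6.79, 6.78, 6.85 and 6.82 in sham and at 6.82, 6.92, 6.97 and 6.98 in ecig mice, a range of 0.20 in all (difference 0.11, SE 0.079, unadjusted p = 0.185 and adjusted p = 0.842 in limma). The median range over all probe sets was 0.5. With 1 probe set for Espl1, a steady RNA and a probe set that responds weakly cannot be told apart.

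Genes of the centromere and kinetochore, the sites where chromosomes are held by microtubules, had lower means in 5 of 6 cases. Cenpe, a kinetochore motor, was at 6.85, 6.85, 6.85 and 6.01 in sham and at 7.63, 5.32, 6.88 and 5.41 in ecig mice (difference -0.33, SE 0.47). Sham mouse 4 also fell short of the other sham mice for this gene, and its value was nearer to that of ecig mice 2 and 4 than to those of sham mice 1 to 3. Nuf2, a subunit of the NDC80 complex that binds microtubules, was at 7.56, 7.63, 7.52 and 7.09 in sham and at 8.19, 6.39, 7.59 and 6.27 in ecig mice (difference -0.34, SE 0.38). The other subunits of that complex measured were Spc25 (difference -0.32, SE 0.21) and Ndc80 (0.014, SE 0.24). Differences were -0.22 (SE 0.22) for Cenpf, a large protein of the outer kinetochore, and -0.056 (SE 0.17) for Cenpa, the histone H3 variant of centromeres. Cenpa in ecig mouse 4 (7.89) was within the sham range (7.72 to 8.12), while ecig mouse 2 (7.46) was below it.

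All 8 genes of spindle motors and microtubule proteins had lower means, with a median difference of -0.39. Prc1, which bundles the microtubules of the central spindle, was at 7.46, 7.15, 7.22 and 6.44 in sham and at 7.60, 5.64, 6.91 and 5.80 in ecig mice (difference -0.58, SE 0.40, 1.50-fold lower). Kif11, the motor that pushes the spindle poles apart, was at 7.69, 7.58, 7.47 and 6.97 in sham and at 8.09, 5.88, 7.71 and 5.73 in ecig mice (difference -0.57, SE 0.49, 1.49-fold lower). In Kif11, ecig mice 1 and 3 were the highest of the 8 and ecig mice 2 and 4 the lowest, so no direction was common to the exposed group. Of the other motors, differences were -0.51 (SE 0.45) for Kif2c, which depolymerises microtubules, -0.42 (SE 0.39) for Kif20a and -0.36 (SE 0.28) for Kif23, both of the central spindle, and -0.35 (SE 0.34) for Kif4, a chromosome-bound motor. They were -0.33 (SE 0.27) for Tpx2, an activator of Aurora A, and -0.20 (SE 0.29) for Nusap1, a microtubule-binding protein. The mean of these 8 genes, relative to the sham mean, was 0.48 in ecig mouse 1, -1.0 in ecig mouse 2, 0.13 in ecig mouse 3 and -1.28 in ecig mouse 4, and -0.42 in sham mouse 4.

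Cytokinesis divides the cell body through a contractile ring placed by the central spindle. Racgap1, a subunit of centralspindlin, was at 7.06, 6.71, 6.92 and 6.28 in sham and at 7.24, 5.95, 6.77 and 5.61 in ecig mice (difference -0.35, SE 0.32). Ect2, the exchange factor that activates RhoA at the ring, was at 7.30, 7.11, 7.33 and 7.16 in sham and at 7.60, 7.09, 7.40 and 5.81 in ecig mice (difference -0.25, SE 0.32). As for Mad2l1, ecig mouse 4 alone was far below the sham mice, with ecig mouse 2 just under the lowest of them. Anln, the ring scaffold anillin, differed by -0.18 (SE 0.16), with an SD of 0.24 in sham and 0.28 in ecig mice.

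Mki67, which encodes the proliferation antigen Ki-67 that coats mitotic chromosomes, was at 9.66, 9.46, 9.65 and 9.01 in sham and at 10, 8.74, 9.49 and 8.05 in ecig mice (difference -0.38, SE 0.36). Top2a, the topoisomerase that untangles sister DNA, was at 8.83, 8.63, 8.39 and 7.97 in sham and at 8.63, 7.22, 8.77 and 7.56 in ecig mice (difference -0.41, SE 0.34). For Top2a the lowest mouse was ecig mouse 2, not 4, and the highest was sham mouse 1. Birc5, survivin of the chromosomal passenger complex, is given after its values were seen. It was at 8.23, 8.07, 8.46 and 8.20 in sham and at 8.20, 8.14, 8.25 and 8.28 in ecig mice (difference -0.024, SE 0.099). The SD of Birc5 was 0.16 in sham and 0.060 in ecig mice, the reverse of the order in the other 33 genes. Aurkb, the kinase of the same complex, was at 8.22 in ecig mouse 1 and 6.77 in ecig mouse 4.

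Correlation described how alike the genes were over the 8 mice, which share arrays and a common scaling. Pearson's r between a gene and the mean of the other 33 had a median of 0.96 and was at least 0.9 for 24 genes. It was below 0.7 for 3 genes, Bub1b (0.69), Birc5 (0.095) and Espl1 (-0.59). The mean over each role group kept ecig mice 2 and 4 below every sham mouse and ecig mouse 1 above.

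Other mitotic genes, on a list of 60 that shares no gene with the first, were likewise highest in ecig mouse 1 and lowest in ecig mice 2 and 4, by smaller amounts. Of 58 measured, 44 had lower and 14 higher means, with a median difference of -0.11, and 0 passed limma's test after adjustment or at an unadjusted p under 0.05. Relative to the sham mean, their mean was 0.36, -0.40, 0.079 and -0.60 in ecig mice 1 to 4 and -0.17 in sham mouse 4. The members of smallest p were Incenp, of the chromosomal passenger complex (difference -0.42, SE 0.23), and 2 with higher means, Pttg1, which encodes securin (0.17, SE 0.098), and Hjurp, the chaperone of CENP-A (0.16, SE 0.097). Incenp was at 7.25, 7.24, 7.23 and 7.15 in sham and at 7.46, 6.27, 7.06 and 6.40 in ecig mice. Adjusted p was 0.838 for each of the 3 in limma.

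DNA replication and S phase genes had lower means for 36 of 39 measured, with a median difference of -0.17 and 0 past limma's test after adjustment or unadjusted. Their mean relative to sham was 0.23, -0.29, -0.12 and -0.59 in ecig mice 1 to 4. Ecig mouse 3 thus lay below the sham mean for S phase genes and 0.080 above it for mitotic genes. The members of smallest p were Uhrf1, which maintains DNA methylation at replication (-0.30, SE 0.14), Cdc6, a loader of the replicative helicase (-0.39, SE 0.20), and Ccne1, cyclin E1 (-0.29, SE 0.15), with adjusted p = 0.838 for each in limma.

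Brakes of the cell cycle and G1 cyclins divided evenly, with 10 of 20 means lower and 10 higher, a median difference of -0.0015 and 0 past adjustment in limma. Unadjusted p was under 0.05 for 1 lower and 2 higher genes. The list holds inhibitors as well as G1 cyclins and their kinases, so opposite changes can cancel in its mean. That mean had a Pearson's r of -0.75 with the mitotic mean over the 8 mice. Single genes ran from -0.92 for Rb1 to 0.80 for Cdk4, and the inhibitors Cdkn2c (0.72) and Cdkn2d (0.76) were also positive. Cdkn1b, the CDK inhibitor p27, was at 9.29, 9.04, 9.15 and 9.30 in sham and at 9.39, 9.95, 9.48 and 10.04 in ecig mice (1.43-fold higher, difference 0.52, SE 0.15, unadjusted p = 0.00674 and adjusted p = 0.838 in limma). All 4 exposed values of Cdkn1b exceeded all 4 sham values, a position found at 1.38% of all probe sets, and the exposed mice with the lowest mitotic genes, 2 and 4, had the highest values. Ccng2, a cyclin of resting cells, differed by 0.36 (SE 0.15, adjusted p = 0.838) and Ccnd2, a D-type cyclin of G1, differed by -0.56 (SE 0.21, adjusted p = 0.838), neither passing limma's test. Ccnd2 was at 9.48, 9.56, 9.27 and 8.85 in sham and at 9.24, 8.62, 8.72 and 8.32 in ecig mice.

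The regulators that act on mitotic promoters and the machinery of mitotic exit had small median differences. Of 12 genes of the DREAM and MuvB complexes, 6 means were lower and 6 higher (median -0.040), with Tfdp1, the partner of E2F factors, at -0.31 (SE 0.13, adjusted p = 0.838 in limma). The 3 NF-Y subunits had a median difference of -0.056. Of 17 genes of the anaphase-promoting complex and its partners, 9 were lower and 8 higher (median -0.039), with Ube2s, its second ubiquitin-conjugating enzyme, at -0.36 (SE 0.16, adjusted p = 0.838). None of these 3 lists held a gene past adjustment. Relative to sham, the DREAM and MuvB mean was 0.06, -0.11, -0.011 and -0.22 in ecig mice 1 to 4. That of the anaphase-promoting complex was 0.098, -0.039, -0.034 and -0.16, and that of NF-Y 0.054, -0.0011, -0.081 and -0.17. Pearson's r of these 3 list means with the mitotic mean over the 8 mice was 0.88, 0.83 and 0.65.

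**Figure D4:**
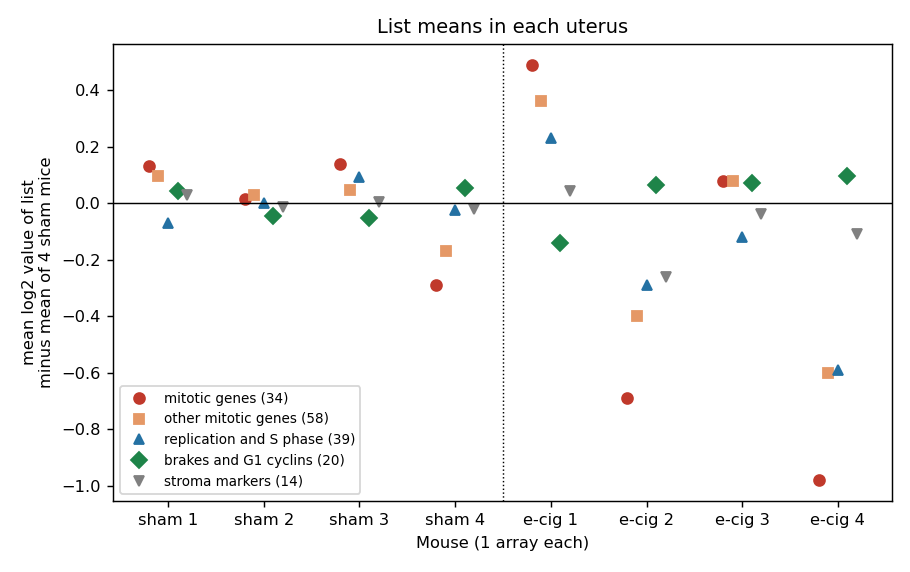
Mean log2 value of each gene list in each mouse, minus its mean over the 4 sham mice; the number of genes is in the legend. Mitotic genes reach 0.49 in ecig mouse 1 and -0.98 in ecig mouse 4, with the other mitotic genes and the S phase genes on the same side of 0 and nearer to it in ecig mice 1, 2 and 4, while brakes and G1 cyclins stay between -0.14 and 0.096.

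Markers of the cell types of the uterus were set beside these values, and no marker gene passed adjustment in limma. Stroma markers, 7 of 14 lower, had list means of 10.39 to 10.43 in sham and 10.15 to 10.45 in ecig mice, lowest in ecig mouse 2. Against the sham mean, this list stood at 0.043, -0.26, -0.038 and -0.11 in ecig mice 1 to 4. Its mean had a Pearson's r of 0.79 with the mitotic mean over the 8 mice, while the median r of its single genes was 0.18. Smooth muscle markers were lower in 14 of 15 (median -0.19), with list means of 10.27 to 10.65 in sham and 10.06 to 10.55 in ecig mice. Relative to the sham mean they stood at -0.47 and -0.31 in ecig mice 2 and 4 and at -0.25 in sham mouse 4, the mice in which mitotic genes were low. Epithelial markers, 12 of 19 lower, had list means of 8.08 to 8.15 in sham and 7.87 to 8.36 in ecig mice. In ecig mouse 2, 11 of the 19 epithelial genes were below their sham mean (list mean -0.24, median gene -0.18). In ecig mouse 4, 14 of the 19 were below it, with the median gene at -0.61, while the list mean stood at 0.25. The secretory genes Prss28, Prss29 and Spink1, named after their values were seen, were far above the sham mice there, at 12.64, 12.04 and 12.22 against sham means of 5.23, 7.10 and 7.69. Most other epithelial genes were low in that mouse, among them Krt19, a keratin (6.93, sham mean 8.59), and Cldn3, a tight junction protein (8.75, sham mean 9.85). Endothelial markers were higher in 12 of 13, with list means of 8.30 to 8.84 in sham and 8.57 to 8.88 in ecig mice. Macrophage and monocyte markers, 10 of 13 lower, ran from 7.83 to 8.10 in sham and from 7.35 to 8.18 in ecig mice, and natural killer cell markers, 8 of 11 lower, from 5.90 to 6.19 and from 5.64 to 6.64. Both were lowest in ecig mouse 2, and natural killer cell markers were highest in ecig mouse 4. T and B cell markers, 6 of 10 lower, ran from 5.69 to 6.01 in sham and from 5.61 to 6.05 in ecig mice, and neutrophil and eosinophil markers, 7 of 12 lower, from 5.79 to 6.01 and from 5.71 to 5.84. Adipocyte markers, 7 of 9 higher, ran from 5.86 to 6.20 in sham and from 5.78 to 6.95 in ecig mice, highest in ecig mice 1 and 2, of which mitotic genes were high in the first and low in the other. Mesothelium markers, 3 of 7 lower, ran from 6.66 to 6.90 and from 6.76 to 6.86, and erythroid markers, 1 of 5 lower, from 6.17 to 6.35 and from 6.19 to 6.58. No deposited value was at 0, so no marker could be called absent. The part of cell make-up in the level of mitotic genes was not tested.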

How the data were processed

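Per the labels, biotin-labelled cRNA was made from uterine RNA, with 1 array for each mouse. The authors deposited log2 values of 22206 probe sets on 8 arrays (2.75 to 13.6, with the log2 scale read from the range). Partek is named without a version, per the submitters' processing notes, and the handling of background, summarisation and scaling was not given in the sources used here. After sorting, columns differ by at most 0.0198, so they had been brought to a common distribution, which hides any change common to the whole array. Symbols came from the platform annotation (19572 probe sets with 1 symbol, 2634 with none).

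The difference between groups (ecig minus sham) was estimated on every probe set by lmFit and eBayes of limma 3.58.1 (R 4.3.3), without covariates, with Benjamini-Hochberg adjustment and a threshold of 0.05. This fit was also run on simulated arrays, in which probe sets varied independently and with the same spread in both groups. Spreads as unequal as those of the mitotic genes, and genes that move together, were not simulated. The mitotic genes, the other lists and the settings were chosen with earlier results of these data known. The rule for named genes took all mitotic genes, with values in every mouse for the 2 of each role with the largest absolute difference, up to 3 genes of smallest p from each other list (the text prints examples) and the 10 genes most like the mitotic mean. Promoter windows were taken from RefSeq. Alternatives were other scalings, filters, variance models, a replicate block and leaving out mice.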

Additional observations from a re-analysis of the deposited data

Results flagged for a closer look

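Outlying mice were looked for by Dixon's test at the 95% level in 120 groups of 4 mice, made up of the sham and the ecig values of 34 mitotic genes and of the list means. In 7 groups 1 mouse lay far from the other 3, and chance flags about 1 in 20 groups. The groups are not independent, since some list means are made of the same mitotic genes, most of which moved together. Several flags of 1 mouse can thus reflect the same low array.

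Sham mouse 4 accounts for 5 of the 7. It was low for Cenpe (6.01, others at 6.85) and Kif4 (5.64, others 6.09 to 6.10), and for the list means of cyclins and their kinase (7.36, others 7.81 to 7.90) and of centromere and kinetochore genes (6.79, others 7.19 to 7.23). It was high for the mean of adipocyte markers (6.20, others 5.86 to 5.91). Sham mouse 3 was high for Aurkb (7.70, others 7.33 to 7.39). Ecig mouse 1 was low for the mean of brakes and G1 cyclins (8.28, others 8.48 to 8.51), while its mitotic mean was the highest of the 8. Ecig mice 2 and 4, low for most mitotic genes, were not flagged in any group. The test looks for 1 mouse far from the other 3, so 2 mice that are low together hide each other. It therefore cannot tell whether ecig mice 2 and 4 were outlying for those genes.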

How the results depend on the processing

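Quantile normalization, median centring and averaging of probe sets left every count as reported (31 of 34 with a lower mean), but could hardly do otherwise, since the arrays already shared a distribution and each mitotic gene has 1 probe set. No setting placed a mitotic gene past an adjusted p of 0.05, the smallest being 0.282 without ecig mouse 1. A filter at the 50th percentile kept 16 of the 34 genes. Same-numbered mice did not deviate together (correlations of deviations 0.080, -0.238, 0.085 and 0.075), and with the replicate number as a block the median difference was -0.32, with 31 genes lower and 0 called. Array weights, which were lowest for ecig mouse 4 (0.491), brought the median difference to -0.24 and the number of lower means to 30, with Aurka turned to 0.034. They moved the difference of 8 further genes by over 1.5 times, to -0.25 for Cdk1, -0.014 for Aurkb, -0.019 for Ttk, -0.11 for Mad2l1, -0.12 for Cdc20, 0.072 for Ndc80, -0.097 for Nusap1 and -0.10 for Ect2. With matches on the gene's strand alone, both promoter elements were found for 12 of 31 genes (2.84% of measured genes with a window), in place of 21.

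When 1 mouse was left out at a time, the number of mitotic genes with a lower mean ran from 24 to 33, the median difference from -0.54 to -0.053, the number with a larger ecig SD from 31 to 33 (57.8% to 69.3% of all probe sets) and the number without overlap from 0 to 1 (4.58% to 10.2% of all probe sets). The 1 gene was Espl1, higher in all remaining ecig mice without ecig mouse 1. The difference changed sign for 11 of the 34 genes, with ranges of -0.23 to 0.11 for Aurka, -0.37 to 0.11 for Aurkb, -0.27 to 0.12 for Ttk, -0.051 to 0.29 for Bub1b, -0.47 to 0.13 for Mad2l1, -0.37 to 0.047 for Cdc20, -0.18 to 0.097 for Cenpa, -0.21 to 0.24 for Ndc80, -0.42 to 0.089 for Nusap1, -0.46 to 0.14 for Ect2 and -0.08 to 0.049 for Birc5.

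Without both ecig mice 2 and 4, 2 genes had a lower mean, the median difference was 0.29, 21 genes had the larger SD in ecig mice (41.7% of all probe sets) and 9 had no overlap between groups, all higher in ecig mice (5.44% of all probe sets). Differences that changed sign there were 0.33 for Ccna2, 0.22 for Ccnb2, 0.47 for Cdk1, 0.40 for Aurka, 0.41 for Aurkb, 0.29 for Plk1, 0.31 for Ttk, 0.35 for Bub1, 0.29 for Melk, 0.24 for Mad2l1, 0.22 for Cdc20, 0.26 for Ube2c, 0.18 for Cenpa, 0.62 for Cenpe, 0.16 for Cenpf, 0.44 for Nuf2, 0.025 for Spc25, 0.47 for Kif11, 0.35 for Kif20a, 0.20 for Kif23, 0.38 for Kif2c, 0.36 for Kif4, 0.16 for Tpx2, 0.36 for Nusap1, 0.19 for Prc1, 0.28 for Ect2, 0.26 for Racgap1, 0.30 for Mki67 and 0.25 for Top2a. This setting leaves 2 exposed mice, chosen because their values were not low, and is no estimate of an effect. Signal over background was not assessed, since no background values were analysed here.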

Other observations

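The genes whose levels followed the mean of the 34 mitotic genes most closely over the 8 mice included some from the list of other mitotic genes and some with other functions. Of 16982 genes compared by Pearson's r, the 10 highest ran from 0.976 to 0.993. Of these, Knl1 (r = 0.993) and Zwilch (0.980), both of the kinetochore, and Shcbp1 (0.989), a protein of dividing cells, are on that list. The others were Mrps15 (0.988) and Mrpl19 (0.983), proteins of the mitochondrial ribosome, Kdelr3 (0.986), a receptor that returns proteins to the endoplasmic reticulum, Hmgn2 (0.983) and Hmgn5 (0.982), nucleosome-binding proteins, Cd59b (0.986), an inhibitor of complement, and Uqcc1 (0.976), an assembly factor of respiratory complex III. These values describe 8 arrays that share a scaling, and the genes were picked for their r out of all genes compared.

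Mrpl19 was at 8.30, 8.28, 8.33 and 7.99 in sham mice 1 to 4 and at 8.53, 7.48, 8.11 and 7.31 in ecig mice 1 to 4. Hmgn2 was at 10.80, 10.77, 10.78 and 10.46 in sham and at 10.99, 10.38, 10.69 and 10.11 in ecig mice. In both genes ecig mouse 1 was highest and ecig mice 2 and 4 lowest, with sham mouse 4 the lowest sham mouse, as for most mitotic genes. Of the 100 genes with the highest r, 14 were on the list of other mitotic genes, 4 on that of DNA replication and S phase and 1 among smooth muscle markers, and 0 were among stroma, epithelial, endothelial or adipocyte markers. These marker lists hold only 9 to 19 genes each of the 16982 compared, so counts of 0 or 1 say nothing about cell make-up. None of the 10 genes named passed limma's test after adjustment.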
